A study of Mus musculus with 34 samples.

Results

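The 8 noncoding RNAs described here are Rn45s, Rmrp, Rpph1, Malat1, Neat1, Gas5, Snhg1 and Snhg3. They were chosen by their symbols, and all 8 were found among the 23366 rows of the deposited gene table. RNA-seq from the mouse embryonic stem cell line J1 was analysed in 4 libraries. Cells in 2 libraries were grown in serum without leukemia inhibitory factor (serum/-LIF), and cells in the other 2 were grown in the same medium with purified Royalactin, a protein of royal jelly, at 0.5 mg/ml (serum/-LIF + Royalactin). All 4 libraries come from the same line at passage 40 by the sample labels. The paper gives a different passage number for its RNA-seq cells, which may count only the passages in each medium. The labels number the libraries 1 and 2 within each condition and do not say what a number stands for. The label notes state that cells were grown in triplicate, and 2 libraries per condition were analysed here. Nothing ties the 2 libraries to separate cultures, so the p-values below measure only the spread between these libraries, which may be technical. Serum/+LIF cells were not analysed here as RNA.

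These RNAs carry out their work without being translated. Rn45s is the precursor that RNA polymerase I makes and that is cut into the 18S, 5.8S and 28S ribosomal RNAs. The precursor contains those RNAs, so reads on this row may come from it or from mature ribosomal RNA left after depletion. How much came from each was not tested. Rmrp and Rpph1 are made by RNA polymerase III and are the RNA parts of RNase MRP, which cuts the ribosomal precursor, and of RNase P, which trims the 5′ end of tRNA precursors. Malat1 is found in nuclear speckles, and Neat1 is the RNA around which paraspeckles form. Gas5, Snhg1 and Snhg3 are host genes, whose introns carry small nucleolar RNAs (snoRNAs) and whose spliced transcripts encode no known long protein. Depletion of ribosomal RNA, as used here, leaves RNAs without a poly(A) tail in the library, so that such genes can be counted beside mRNAs.

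The sequences of Rmrp and Rpph1 show which RNAs were counted and what their start regions share. Rmrp lies on chromosome 4 (chr4:43505660-43505930, mm9, minus strand) and is a single exon of 271 bases. Rpph1 lies on chromosome 14 (chr14:51427124-51427442, mm9, minus strand) and is a single exon of 319 bases. They are given 5′ to 3′ as the genome strand of the gene, Rmrp in full and Rpph1 for its first 300 bases.
Rmrp: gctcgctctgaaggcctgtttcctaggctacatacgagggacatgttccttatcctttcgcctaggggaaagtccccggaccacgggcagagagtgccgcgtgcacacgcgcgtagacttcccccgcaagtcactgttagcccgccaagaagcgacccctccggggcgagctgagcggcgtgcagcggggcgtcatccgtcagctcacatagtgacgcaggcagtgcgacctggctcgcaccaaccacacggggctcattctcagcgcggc
Rpph1: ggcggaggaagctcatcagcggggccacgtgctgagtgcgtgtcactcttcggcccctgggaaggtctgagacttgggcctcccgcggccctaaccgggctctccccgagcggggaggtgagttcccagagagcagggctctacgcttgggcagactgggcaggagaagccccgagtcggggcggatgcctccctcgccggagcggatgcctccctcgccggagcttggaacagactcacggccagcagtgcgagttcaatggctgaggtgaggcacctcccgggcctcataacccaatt
The 100 bases before each start, with the first 10 bases of the RNA, are given next, and the capitals mark ACCNTAANC, where N is any base.
Rmrp upstream: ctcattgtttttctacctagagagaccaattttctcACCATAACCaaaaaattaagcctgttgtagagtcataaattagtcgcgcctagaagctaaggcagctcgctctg
Rpph1 upstream: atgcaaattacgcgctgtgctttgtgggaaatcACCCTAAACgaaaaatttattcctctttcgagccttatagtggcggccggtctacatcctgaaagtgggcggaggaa
The capital letters begin 64 bases before the annotated start of Rmrp and 67 bases before that of Rpph1. Genes of this kind are known to carry a proximal sequence element, bound by the snRNA-activating complex, in the same part of the promoter. The letters were picked after both windows had been read. On either strand, 1.66% of 32851 RefSeq promoter windows (GRCm38.p6, 250 bases before to 50 after the start) hold them. The match is a description of the letters and not of binding.

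The start regions of the 3 snoRNA host genes are shown because transcripts of this class are known for a start within a run of C and T. In each window the annotated start follows base 40, and the windows are from RefSeq on GRCm38.p6.
Gas5: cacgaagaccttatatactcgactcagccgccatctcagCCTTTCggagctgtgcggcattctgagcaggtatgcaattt
Snhg1: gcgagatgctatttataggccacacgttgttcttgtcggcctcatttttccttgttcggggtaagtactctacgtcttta
Snhg3: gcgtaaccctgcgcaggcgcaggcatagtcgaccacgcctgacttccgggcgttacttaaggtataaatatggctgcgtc
The capitals in the Gas5 window mark a C followed by at least 5 C or T bases, which begins 1 base before the start. For Gas5, RefSeq lists another start upstream, whose window held no such run within 20 bases of the start, and neither did those of Snhg1 and Snhg3. Of all RefSeq windows, 29.4% hold such a run, so it is common. The Snhg1 window does hold a run of T and C just after its start, which begins with T and so was not marked.

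Gas5 lies on chromosome 1 (chr1:162964553-162968670, plus strand), Snhg1 on chromosome 19 (chr19:8797986-8800932, plus strand) and Snhg3 on chromosome 4 (chr4:131903929-131909601, minus strand). Malat1 (chr19:5795690-5802671, minus strand) and Neat1 (chr19:5824708-5845478, minus strand) are neighbours, 22036 bases apart, and each is annotated as 1 exon. All positions are those of GENCODE on mm9. Rn45s has no entry in the annotations used here, so no position or sequence is given for it. Some counts rest on sequence that is shared. Of the exon bases of Rmrp, 45.8% are also antisense exon of Ccdc107, which had 12 to 121 reads per library, against 78277 to 439025 for Rmrp. Snhg3 shares 13.7% of its exon bases with Rcc1 on the same strand and 71.5% with a noncoding gene on the other strand, and 13.5% of its 75-base tiles match elsewhere in the genome. Its counts are therefore uncertain. Annotated exons of Gas5 and Snhg1 also hold several snoRNAs on the same strand. Each covers 1.60% to 2.23% of the exon bases of Gas5 or 2.21% to 4.28% of those of Snhg1. Snora73a covers 16.1% of those of Snhg3. Whether reads of these snoRNAs were counted for the host genes is not known. For Rpph1, 4.49% of tiles match elsewhere, for Malat1 1.24%, and for the others under 0.5%.

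Read depth was recovered from the deposited values, which are reads divided by 1 size factor per library. The 4 libraries held 14737796 to 17597818 reads that fell on genes. Rn45s was the most abundant row in all 4 libraries. It took 46.6% of the reads in serum/-LIF number 1 and 21.6% in number 2, and 38.4% and 9.08% in serum/-LIF + Royalactin numbers 1 and 2. In both conditions number 1 held the larger share, 2.16-fold in serum/-LIF and 4.23-fold with Royalactin. The mean share was 34.1% ± 17.7 in serum/-LIF and 23.8% ± 20.7 with Royalactin (SD, n = 2), a difference smaller than either SD. Wilson 95% intervals of these shares were at most 0.148% of the value on either side, so counting error is small beside the gap between replicates. Such intervals cover counting error only, since PCR copies of a molecule are counted as separate reads. As Rn45s fills so much of the total, every other share is lowered where it is high, and shares of the reads outside Rn45s are given for the other 7 RNAs as well. Those reads numbered 7878527 and 11559820 in serum/-LIF, and 10538334 and 15999458 with Royalactin.

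**Figure D1:**
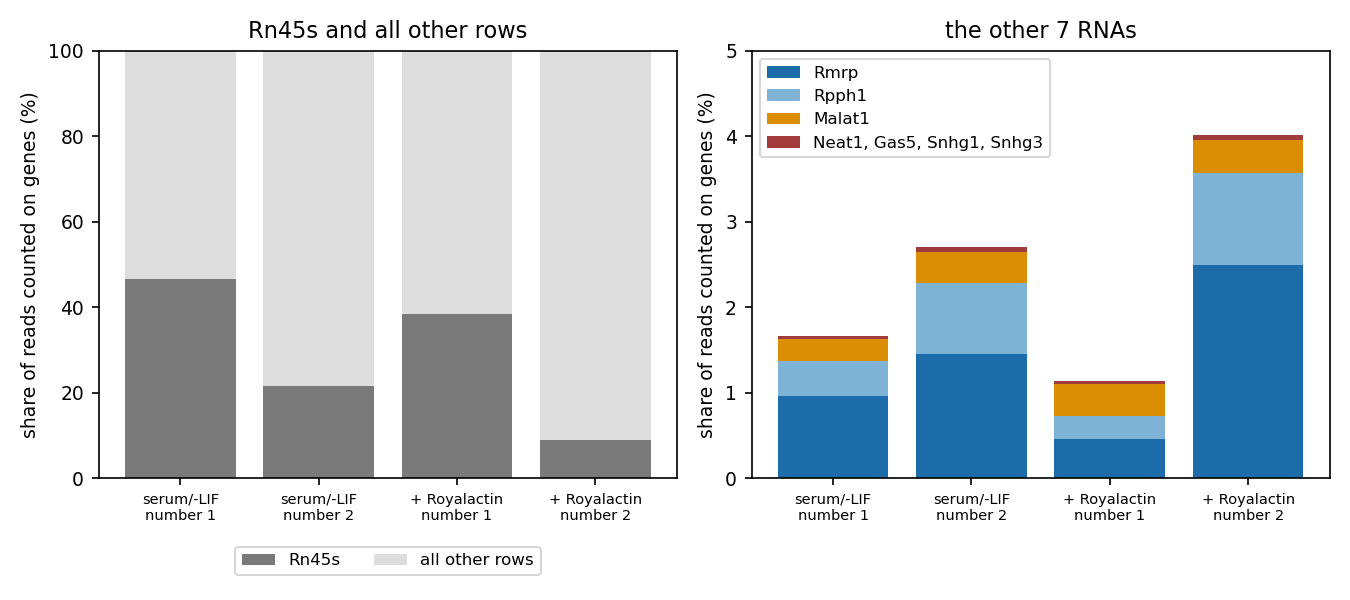
The bars show the percent of all reads counted on genes, in each of the 4 libraries, taken by Rn45s and all other rows (left) and by the other 7 RNAs, stacked (right, on an axis up to 5%). Rn45s ranges from 9.08% to 46.6% and is larger in number 1 of each condition, whereas the other 7 RNAs together range from 1.14% to 4.02% and are larger in number 2.

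Normalized counts are used for the tests, which were run with limma on log2(normalized count + 1) over the 12993 genes with a mean of at least 10. All 8 RNAs passed this filter. The differences below are on that log2 scale. The condition test compares the 2 libraries of each condition. The number test compares libraries numbered 2 with those numbered 1 after allowing for condition. It leaves 1 residual degree of freedom, and its spread came entirely from the trend of variance on abundance over all genes, so that the spread of each gene on its own does not enter its p-values. With 2 libraries against 2, an exact permutation test of a single value cannot go below p = 0.333, and none is given.

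None of the 8 RNAs passed an adjusted p of 0.05 for condition, where 0.493% of all tested genes did (64 genes), or for number, where 0.200% did (26 genes). Both Royalactin libraries lay to one side of the serum/-LIF pair for Neat1 and Snhg3, 2 of the 8 RNAs, against 38.6% of tested genes. Both libraries of number 2 lay on one side of both of number 1 for Rn45s, Rmrp, Rpph1, Gas5 and Snhg1, 5 of the 8, against 34.9% of tested genes. Fewer cells of a type and less RNA per cell cannot be told apart in such bulk samples.

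Rn45s had 9206979 and 3289366 normalized counts in serum/-LIF numbers 1 and 2, and 6612824 and 1100219 with Royalactin. Both number 1 libraries were above both number 2 libraries, while the conditions overlapped. The log2 difference of number 2 from number 1 was -2.04 (standard error 1.44, limma adjusted p = 0.693), and that of Royalactin from serum/-LIF was -1.03 (standard error 2.34, limma adjusted p = 0.929). Only 1 tested gene, Rn45s itself, had a mean log2 value of at least 20, so the trend of variance at its level rests on this gene. With edgeR on the recovered reads, run after the data were seen, the difference by number passed (log2 -2.02, adjusted p = 1.27e-06) and that by condition did not (log2 -0.69, adjusted p = 0.882). The first of these comes from a fit with both terms and the second from a fit of condition alone. In the edgeR fit with both terms the condition difference passed as well (log2 -1.01, adjusted p = 0.0103). The calls on Rn45s thus depended on the tool and, for condition, on the terms of the fit.

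The genes that make and process the ribosomal precursor were described as lists. Of the 14 tested genes of RNA polymerase I and rDNA transcription, none passed either test, with medians of 0.08 for condition and 0.33 for number. The largest condition difference was that of Ubtf, the factor that binds rDNA promoters, with 2089 and 1535 normalized counts in serum/-LIF and 2953 and 3350 with Royalactin (log2 0.81, limma adjusted p = 0.378). The largest difference by number was that of Cd3eap, a polymerase I subunit, at log2 0.88 (limma adjusted p = 0.380). Of 25 genes of ribosomal precursor processing none passed, with medians of -0.06 and 0.25. Their largest differences were those of Noc4l by condition (log2 0.65, limma adjusted p = 0.589) and of Nop10, a protein of H/ACA snoRNPs, by number (log2 0.95, limma adjusted p = 0.126). The medians over all tested genes were -0.01 for condition and -0.01 for number.

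Rmrp ranked from 2 to 5 among all rows in abundance. Its share of all reads was 0.963% and 1.46% in serum/-LIF numbers 1 and 2, and 0.457% and 2.49% with Royalactin. Of the reads outside Rn45s it took 1.80% and 1.86% in serum/-LIF, which were nearly alike, and 0.743% and 2.74% with Royalactin, which lay on either side. Its means outside Rn45s were thus 1.83% ± 0.0397 and 1.74% ± 1.42 (SD, n = 2). In normalized counts the log2 difference by condition was -0.42 (standard error 0.76, limma adjusted p = 0.907), with a 95% interval from -2.05 to 1.22. By number it was 1.08 (standard error 0.51, 95% interval from 0.09 to 2.08, limma adjusted p = 0.450), made up of 0.23 in serum/-LIF and 1.94 with Royalactin. The difference by number thus came mostly from the Royalactin pair.

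Rpph1 followed the same order of libraries. It held 0.407% and 0.829% of all reads in serum/-LIF numbers 1 and 2, and 0.269% and 1.08% with Royalactin. Outside Rn45s the shares were 0.763% and 1.06%, and 0.436% and 1.18%. The 2 number 2 libraries were close to each other and above both number 1 libraries on either total. The log2 difference by number was 1.07 (standard error 0.42, 95% interval from 0.25 to 1.89, limma adjusted p = 0.314), with 0.65 in serum/-LIF and 1.49 with Royalactin. By condition it was -0.38 (standard error 0.61, limma adjusted p = 0.893). The ratio of Rmrp to Rpph1 reads was 2.37 and 1.76 in serum/-LIF and 1.70 and 2.32 with Royalactin, a narrower range than that of either RNA alone.

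**Figure D2:**
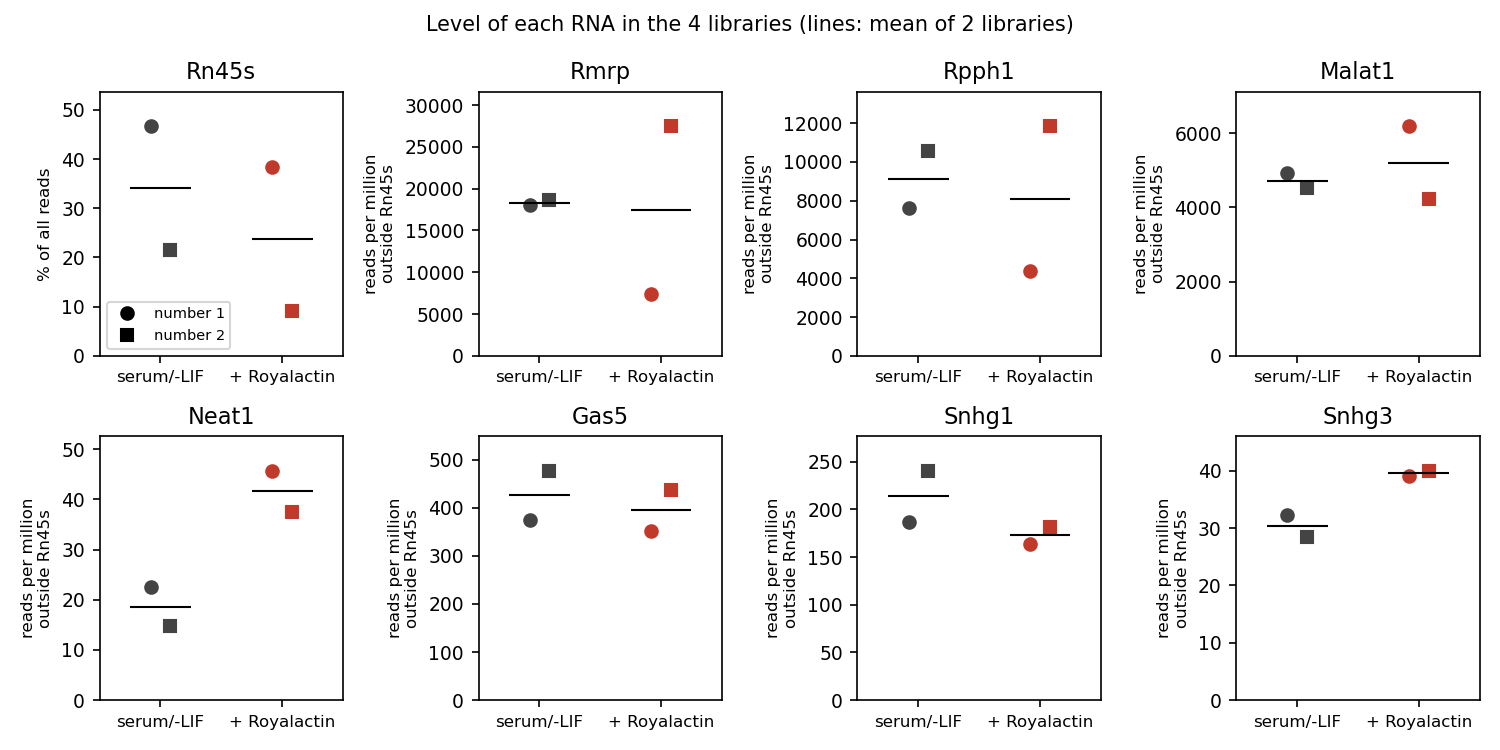
Each panel shows 1 RNA in the 4 libraries, with circles for number 1, squares for number 2 and lines for the mean of 2 libraries; the axis of Rn45s is percent of all reads and the other axes are reads per 1000000 reads outside Rn45s (RPM), all starting at 0. Rmrp is at 18045 and 18606 in serum/-LIF and at 7428 and 27440 with Royalactin, whereas Neat1 and Snhg3 are higher in both Royalactin libraries than in either serum/-LIF library.

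The protein subunits of RNase MRP and RNase P were also counted. All 11 listed subunit genes were tested and none passed either test. By number, 10 of 11 were higher in number 2, with a median of 0.74, and 7 did not overlap, against 34.9% of tested genes. The largest difference was that of Rpp40, with 199 and 720 normalized counts in serum/-LIF and 330 and 527 with Royalactin (log2 1.26, limma adjusted p = 0.108). By condition the median was -0.09. Rpp25 had the largest condition difference, with 70.9 and 114 normalized counts in serum/-LIF and 217 and 345 with Royalactin (log2 1.60, limma adjusted p = 0.251). Of 21 genes of RNA polymerase III and the snRNA-activating complex, which make Rmrp and Rpph1, none passed, with medians of 0.18 for both comparisons. Polr3gl, a polymerase III subunit, had the largest condition difference (log2 1.81, limma adjusted p = 0.573), and Snapc5 the largest by number (log2 0.64, limma adjusted p = 0.653).

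Other small RNAs made up the group in which number, not condition, gave calls. Of 741 rows with symbols of small RNA genes, 279 had a read in some library and 120 were tested. For condition none passed, against 0.493% of all tested genes, and the median was 0.07. For number 7 passed as higher in number 2 and 1 as lower, against 0.0847% and 0.115% of all tested genes, and the median was 0.65. The 29 tested H/ACA snoRNAs, which guide pseudouridylation of RNA, had a median of 1.11 by number, with 28 higher in number 2 and 4 passing. The 44 tested C/D snoRNAs, which guide methylation, had a median of 0.26, with 28 higher and 1 passing. Snora81 is named here as the most abundant. It had 6299 and 17630 normalized counts in serum/-LIF numbers 1 and 2 and 3984 and 24517 with Royalactin (log2 by number 2.05, limma adjusted p = 6.26e-09). Like Rmrp it was lowest in Royalactin number 1 and highest in Royalactin number 2. Rnu11, the U11 RNA of the minor spliceosome, was instead alike between conditions, with 60.2 and 395 normalized counts in serum/-LIF and 69.4 and 397 with Royalactin (log2 2.60, limma adjusted p = 0.000184). Snora28 had 13.4 and 139 normalized counts in serum/-LIF and 77.4 and 286 with Royalactin (log2 2.58, limma adjusted p = 0.0413). Terc, the RNA of telomerase, named here after its values were seen, had 1629 and 2608 normalized counts in serum/-LIF and 1085 and 3235 with Royalactin (log2 1.13, limma adjusted p = 0.0303). The row Mir5109 went the other way, with 602 and 65.2 normalized counts in serum/-LIF and 552 and 79.2 with Royalactin (log2 -2.99, limma adjusted p = 2.49e-07). All of these calls depend on the fit. With the number as the only term no gene passed, with 567 genes at an unadjusted p under 0.05, and without the trend none passed, with 664. With edgeR, run after the data were seen, 17 genes passed by number, of which 15 were among the 26.

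**Figure D3:**
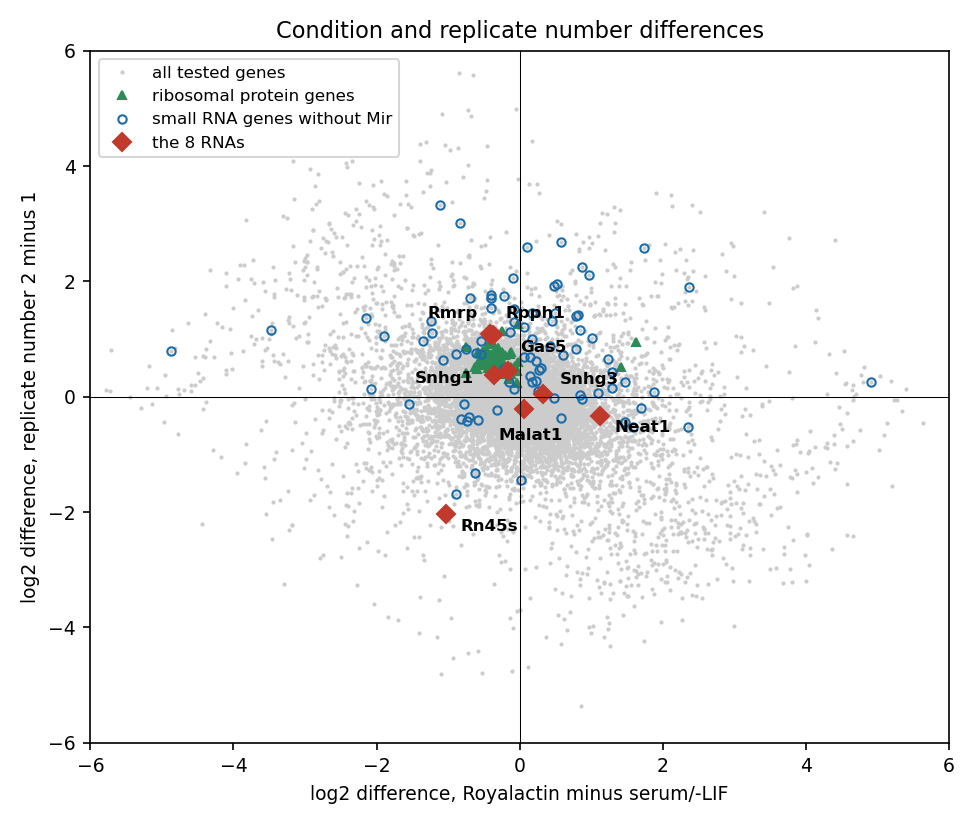
Each point is a tested gene, with the log2 difference of Royalactin from serum/-LIF on the horizontal axis and that of number 2 from number 1 on the vertical axis, both cut at 6 (2 genes lie outside). Rmrp and Rpph1 sit at 1.08 and 1.07 on the vertical axis among the small RNA genes, Rn45s at -2.04, and Neat1 is the only 1 of the 8 beyond 1 to the right.

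By the distance between log2 values centred over the 4 libraries, the gene nearest to Rpph1 was the snoRNA Snora17, at 0.01 log2 units. It had 199 and 316 normalized counts in serum/-LIF and 114 and 329 with Royalactin. The next were the histone gene Hist1h4c at 0.08 and Nhlrc3 at 0.09. The nearest to Rmrp were Zswim7, Smim4 and Snord22, each at 0.10. Snord22, a snoRNA that lies within Snhg1, had 259 and 299 normalized counts in serum/-LIF and 105 and 348 with Royalactin. The nearest to Rn45s were Ptgs2 and Car7, both at 0.13, and Nfkbiz at 0.21. Ptgs2, an inducible prostaglandin synthase, had 72.2 and 19.7 normalized counts in serum/-LIF and 45.3 and 6.20 with Royalactin. Car7 had 26.7 and 8.28 in serum/-LIF and 22.1 and 2.07 with Royalactin. Both matches thus rest on few reads in Royalactin number 2. Within 0.3 log2 units were 8 genes for Rn45s, 98 for Rmrp, 279 for Rpph1 and 547 for Neat1, out of 12993 tested.

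The libraries also differed by gene length, which was examined after the data were seen. Exon length was known for 93.7% of tested genes. Of the genes with 350 to under 1000 exon bases, 84.2% had higher values in number 2 (median 0.53, 442 genes), and of those with 8000 or more 23.6% did (median -0.26, 1350 genes). Genes under 350 bases, which include most of the small RNAs, had a median of 0.62 and 76.5% were higher in number 2 (119 genes). The medians by condition ran from -0.24 to 0.07 over the same bins. Of 80 tested ribosomal protein genes, which have short mRNAs, none passed by number. All 80 had higher values in number 2 as deposited (median 0.65) and 74 did not overlap, against 34.9% of tested genes. By condition none passed either, and 78 had a lower mean log2 value with Royalactin (median -0.36). Most of them overlapped, as only 2 lay wholly lower with Royalactin and 2 wholly higher. Of all tested genes, 38.6% did not overlap by condition. Rmrp and Rpph1 have 271 and 319 bases and exceeded the median of their length bin by number, at 1.08 and 1.07. The part of gene length in these differences was not tested.

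**Figure D4:**
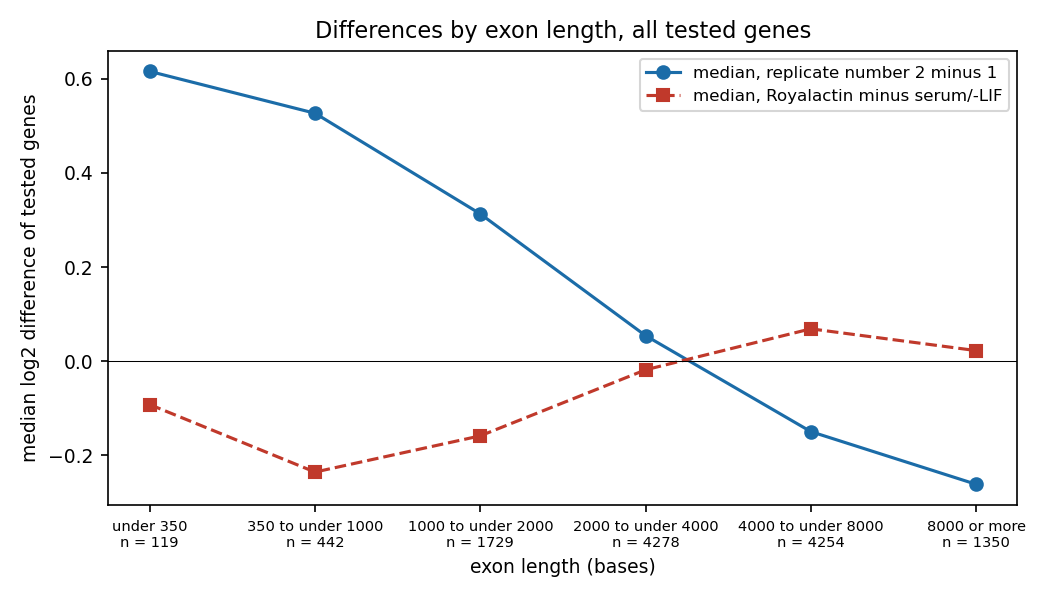
The median log2 difference of tested genes is plotted against exon length in 6 bins, with circles for number 2 minus number 1 and squares for Royalactin minus serum/-LIF, and n is the number of genes in each bin. The line for number falls from 0.62 in genes under 350 bases to -0.26 in genes of 8000 bases or more, while that for condition stays between -0.24 and 0.07.

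Malat1 was the most even of the abundant RNAs. It had 51872 and 54103 normalized counts in serum/-LIF numbers 1 and 2 and 65498 and 46562 with Royalactin. The serum/-LIF values lay between those with Royalactin, so the conditions overlapped. The log2 difference by condition was 0.06 (standard error 0.46, limma adjusted p = 0.980, 95% interval from -0.94 to 1.06), and by number it was -0.22 (limma adjusted p = 0.901). As a share of all reads Malat1 was 0.263% and 0.355% in serum/-LIF and 0.381% and 0.384% with Royalactin, where the conditions did not overlap. Outside Rn45s they overlapped again, at 0.492% and 0.452% against 0.618% and 0.423%, so the separation depends on whether Rn45s is in the total.

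Neat1 had the largest condition difference of the 8 RNAs and lay beside Malat1 in the genome but far below it in level. It had 237 and 176 normalized counts in serum/-LIF numbers 1 and 2, from 177 and 170 reads, and 485 and 414 with Royalactin, from 482 and 601 reads. Each Royalactin library was above each serum/-LIF library, also as a share of all reads and of reads outside Rn45s. The log2 difference was 1.13 (standard error 0.38, 95% interval from 0.30 to 1.96). After adjustment over all tested genes it did not pass (limma adjusted p = 0.328). By number the log2 difference was -0.33 (limma adjusted p = 0.852). Outside Rn45s, Neat1 had 22.5 and 14.7 RPM in serum/-LIF and 45.7 and 37.6 with Royalactin, a ratio of means of 2.24. There were 219 and 307 Malat1 reads per Neat1 read in serum/-LIF and 135 and 113 with Royalactin, and these ratios do not depend on scaling. Genes with the nearest pattern were Mgmt, a DNA repair enzyme, at 0.03 log2 units, Pla1a at 0.04 and Usp28, a deubiquitinase, at 0.05.

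The proteins that build paraspeckles with Neat1 are encoded by 17 tested genes of the list. None passed for condition, with a median of 0.05, and the largest difference was that of Rbm14 (log2 0.59, limma adjusted p = 0.635). Of 16 other long noncoding RNAs none passed either test. Xist had the largest condition difference, from 1.34 and 13.5 normalized counts in serum/-LIF to 62.4 and 21.3 with Royalactin (log2 2.69, limma adjusted p = 0.605), and Peg13 the largest by number (log2 -2.56, limma adjusted p = 0.676).

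Gas5, the most abundant of the snoRNA host genes, had 3944 and 5710 normalized counts in serum/-LIF numbers 1 and 2 and 3731 and 4816 with Royalactin. Snhg1 had 1970 and 2880 in serum/-LIF and 1736 and 2002 with Royalactin. For both, each number 2 library was above each number 1 library, and conditions overlapped. The log2 differences by number were 0.45 for Gas5 (standard error 0.27, limma adjusted p = 0.621) and 0.38 for Snhg1 (standard error 0.28, limma adjusted p = 0.700). By condition they were -0.16 (limma adjusted p = 0.911) and -0.35 (limma adjusted p = 0.777). The ratio of Gas5 to Snhg1 reads stayed between 1.98 and 2.41. As shares of all reads, Gas5 took 0.0200% and 0.0374% in serum/-LIF and 0.0217% and 0.0398% with Royalactin, and Snhg1 took 0.00998% and 0.0189%, and 0.0101% and 0.0165%. Outside Rn45s, Snhg1 had 187 and 241 RPM in serum/-LIF and 164 and 182 with Royalactin, where both Royalactin libraries were the lower. Snord47, a snoRNA annotated within Gas5, had 261 and 263 normalized counts in serum/-LIF and 97.6 and 80.5 with Royalactin (log2 -1.55, limma adjusted p = 0.229). Its conditions did not overlap, as was so for 38.6% of all tested genes, while those of its host gene did. Of the 44 tested C/D snoRNAs, 7 lay wholly higher and 10 wholly lower with Royalactin.

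Snhg3 was the least abundant host gene of the 3, with 340 normalized counts in both serum/-LIF libraries and 414 and 441 with Royalactin. The conditions did not overlap on any of the totals used. The log2 difference was 0.33 (standard error 0.35, 95% interval from -0.43 to 1.09, limma adjusted p = 0.827), and 0.04 by number (limma adjusted p = 0.990). It was counted from 254, 328, 412 and 640 reads, and its Wilson intervals were 7.75% to 12.3% of the value on either side. Rcc1, which shares exon bases with it, had 1081 and 917 normalized counts in serum/-LIF and 1105 and 1505 with Royalactin. Of 13 other snoRNA host genes without a protein, none passed either test. By condition their median was 0.02, and by number 0.26, with 10 higher in number 2. By number 8 lay wholly higher in number 2 and 1 wholly lower. Of all tested genes, 34.9% did not overlap by number in either direction. Snhg10 had the largest condition difference (log2 1.09, limma adjusted p = 0.849) and Snhg9 the largest by number, with 74.9 and 64.2 normalized counts in serum/-LIF and 35.2 and 204 with Royalactin (log2 1.14, limma adjusted p = 0.606). Spliced transcripts of this class are known targets of nonsense-mediated decay. Of 14 decay factors none passed, with medians of 0.13 and -0.08. Magoh differed most by condition (log2 -0.60, limma adjusted p = 0.646) and Upf1 by number (log2 -0.89, limma adjusted p = 0.212).

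Per kilobase of annotated exon, in RPM outside Rn45s, the order in serum/-LIF was Rmrp at 67621 ± 1464, Rpph1 at 28523 ± 6520, Malat1 at 676 ± 40.7, Gas5 at 113 ± 19.4, Snhg1 at 72.6 ± 12.9, Snhg3 at 30.7 ± 2.77 and Neat1 at 0.895 ± 0.264 (SD, n = 2). With Royalactin the order was the same. The ranges over the 4 libraries overlapped only for Rmrp and Rpph1. Within every library Rmrp was still above Rpph1. Annotated exons of Gas5 and Snhg1 cover most of their introns, which lowers their values per kilobase. The annotation used for counting is not given and may have other exon lengths. These values and their order therefore hold only for the lengths used here.

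The deposited scaling decides several of these directions. Rescaled to equal totals with Rn45s included, the median of all tested genes by number shifted to 0.42 from -0.01, and Rmrp, Rpph1, Gas5 and Snhg1 all passed as higher in number 2, as did 942 genes, with 14 passing as lower. Rescaled to equal sums over ribosomal protein genes the median went to -0.63, and Gas5 and Snhg1 turned to -0.17 and -0.24 by number. Rn45s was lower in number 2, and Rmrp and Rpph1 were higher, under each of the 5 scalings. By condition, Neat1 and Snhg3 were higher and Rn45s lower with Royalactin under each of the 5, whereas Gas5 changed sign under both of these scalings and Snhg1 under the second. Malat1 and Neat1 turned to 0.22 and 0.11 by number on totals with Rn45s. By condition the median of all tested genes shifted to 0.26 and 0.35 under these scalings, which gave 104 higher and 17 lower calls and 39 higher and 5 lower calls, against 43 and 21 as deposited. By number the split was 11 higher and 15 lower as deposited, 7 and 37 on totals without Rn45s, and 8 and 1409 on ribosomal protein sums.

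**Figure D5:**
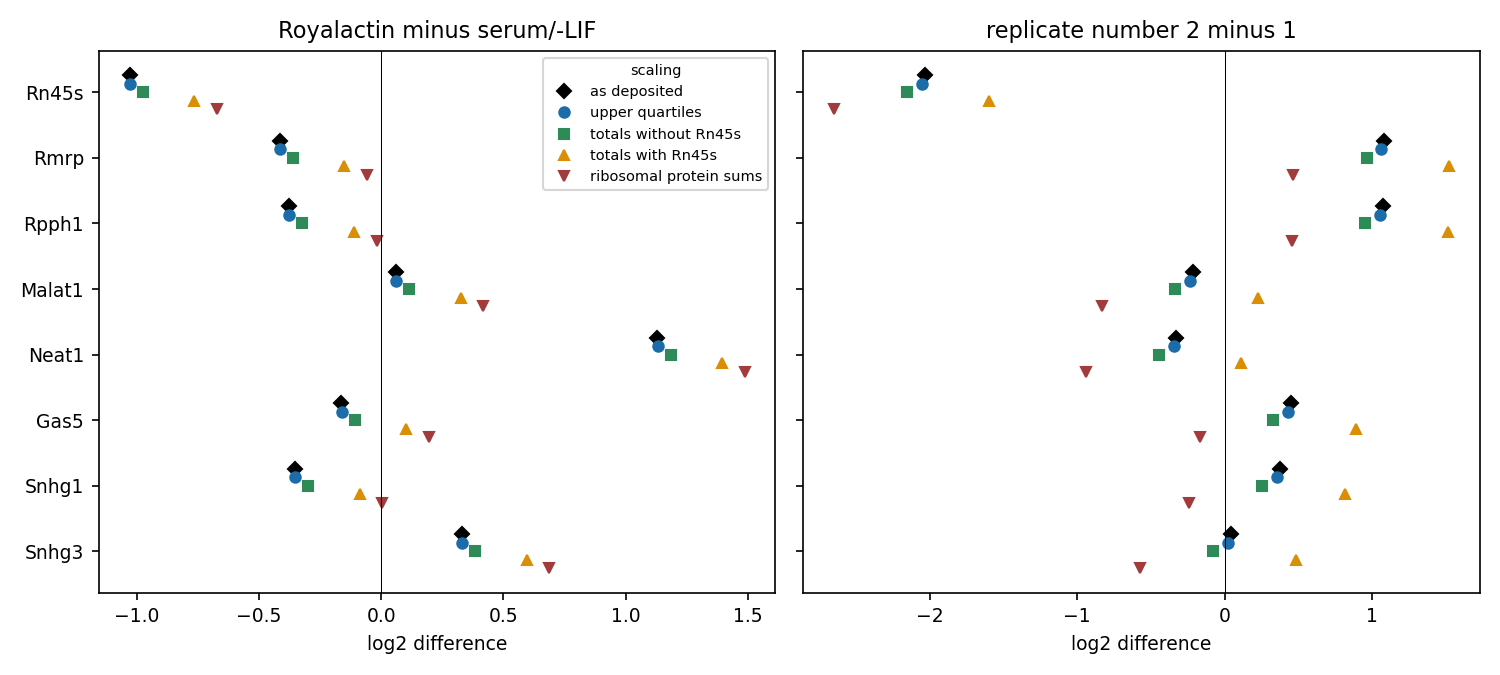
For each of the 8 RNAs, symbols show the log2 difference of Royalactin from serum/-LIF (left) and of number 2 from number 1 (right) as deposited and under 4 other scalings. Neat1 lies between 1.13 and 1.49 by condition and Rmrp between 0.47 and 1.52 by number, while Gas5 and Snhg1 lie on both sides of 0 in both panels.

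The labelled cell type was checked against marker lists. All 10 embryonic stem cell markers had reads in each condition, and their summed normalized counts were 28292 and 32965 in serum/-LIF and 38185 and 44842 with Royalactin. Of these, 3 passed as higher with Royalactin (Esrrb, Zfp42 and Sox2) and none passed by number, where 3 of 10 did not overlap, against 34.9% of tested genes. The sum of 11 fibroblast markers was 3390 and 2198 in serum/-LIF and 7189 and 4193 with Royalactin, of which Fn1 made up 72.3%, and Pdgfrb and Postn had no read. Dcn, named as the largest difference of that list, had 37.4 and 31.1 normalized counts in serum/-LIF and 0 in both Royalactin libraries. It did not pass (log2 -5.13, limma adjusted p = 0.422), and none of the 5 tested fibroblast markers passed either test. The sums were 2196 and 1764 against 1306 and 1427 for 7 nervous system markers, of which Nes, the largest with 48.5% of the sum, passed as lower with Royalactin (log2 -1.95, limma adjusted p = 0.0166). Most of that list lay the other way, with 5 of 7 higher with Royalactin and a median of 0.63, and none of these 5 passed. For 7 endoderm markers they were 1549 and 988 against 1023 and 986, and none passed. The part of other cell types in the values of Neat1 and Snhg3, which separated by condition, was not tested.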

How the data were processed

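The data were 4 RNA-seq libraries of J1 mESCs, 2 in serum/-LIF and 2 in serum/-LIF + Royalactin. The other samples of the series are ATAC-seq and were not used here. The authors depleted ribosomal RNA, sequenced single reads of 75 bases, aligned them to mm9 with TopHat and counted them per gene with HTSeq. They deposited normalized counts, a signal in which each count was divided by a DESeq size factor. The strand setting and annotation of the counting are not given in the sources used here. Each library has 1 step by which 100% of its 23366 values can be divided to give whole reads (tolerance 0.01 of a read), and these reads were used as recovered counts. For Royalactin number 1 this step is 1.01, so close to 1 that the automatic check could not decide. Per library 14737796 to 17597818 reads were recovered.

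Tests used limma 3.58.1 in R 4.3.3 (trend, two-sided, Benjamini-Hochberg adjustment over all tested genes) on log2(normalized count + 1). The edgeR 4.0.16 quasi-likelihood test on recovered reads and the length bins were added after the data were seen. Exon positions and lengths are from GENCODE (mm9), and 75-base tiles were mapped with minimap2 2.31-r1302. Rmrp and Rpph1 were matched to annotated noncoding RNA genes by their neighbours Ccdc107 and Parp2. The 8 RNAs and all gene lists were chosen with earlier results of these data known. From each list up to 3 genes past an adjusted p of 0.05 with the largest differences are named, or else the single largest, in each comparison. Snora81, Terc and Snord47 are named outside this rule. The comparison by number of the paraspeckle list is not reported here. The 3 genes nearest in pattern are named for RNAs whose log2 values span at least 1. Rows with repeated symbols (2 symbols) were kept. The steps were tested on simulated counts with 200 changed genes of 12800 tested on average. For condition limma called 67.3% of genes changed 4-fold and 10.0% of those changed 2-fold, and 2.67% of calls were false. For number it called 68.7% and 12.7%, and 7.33% of calls were false, above the 5% aimed at. The simulated counts held no shift shared by many genes, such as the difference by gene length. These rates may therefore not hold for the real libraries.

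Alternatives were pseudocounts of 0.1 and 5, no filter or a mean of at least 50, 4 other scalings, no variance trend, the replicate number as a block or alone, other totals for the shares, and each library left out.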

Additional observations from a re-analysis of the deposited data

How the results depend on the processing

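For condition, 64 genes passed as reported. The number was 32 with a pseudocount of 0.1, 34 without a filter, 99 with a mean of at least 50, 121 on totals with Rn45s and 0 without the variance trend (1135 at an unadjusted p under 0.05). For number, 26 passed, and 16 did with a pseudocount of 0.1, 956 on totals with Rn45s, 44 on totals without Rn45s, 1417 on ribosomal protein sums, 17 with edgeR, 0 without the trend and 0 with the number as the only term. With 1 library left out the count for condition was 0 in each of the 4 cases (428 to 2496 at an unadjusted p under 0.05), where the lone library is assumed to vary like the others. For number such fits leave no residual degrees of freedom and gave values only. What caused these shifts was not tested.

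Deviations of same-numbered libraries from their condition means correlated at 0.0851 across 12993 genes, and with 2 pairs the numbers are not shown to pair the libraries. With the replicate block 391 genes passed for condition, and none of the 8 RNAs did (Neat1 adjusted p = 0.102). With edgeR and the block, 298 genes passed, and 1 of the 8 RNAs, Rn45s (log2 -1.01, adjusted p = 0.0103).

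Of the 8 RNAs, 0 passed as reported in either comparison. By number, 4 passed on totals with Rn45s, 1 on ribosomal protein sums (Rn45s, log2 -2.65, adjusted p = 0.0372) and 1 with edgeR (Rn45s). By condition Neat1 ranged from log2 0.92 to 1.49 over its alternatives, with adjusted p from 0.10 to 1.00, and Snhg3 from 0.29 to 0.69. The sign turned on totals with Rn45s for Gas5 by condition (0.10) and for Malat1 and Neat1 by number (0.22 and 0.11), on totals without Rn45s for Snhg3 by number (-0.075), and on ribosomal protein sums for Gas5 and Snhg1 by condition (0.20 and 0.0052) and for Gas5, Snhg1 and Snhg3 by number (-0.17, -0.24 and -0.57). By condition it also turned for Gas5 without serum/-LIF replicate 2 (0.10), for Rmrp, Rpph1, Malat1 and Gas5 without Royalactin replicate 1 (0.55, 0.37, -0.19 and 0.02), and for Rn45s without Royalactin replicate 2 (0.26). With 1 library left out these differences ran from -2.32 to 0.26 for Rn45s, -1.39 to 0.55 for Rmrp, -1.12 to 0.37 for Rpph1, -0.19 to 0.31 for Malat1 and -0.43 to 0.10 for Gas5. The share of the 7 RNAs other than Rn45s differed by log2 0.24 between conditions as reported, and by -0.93 to 0.88 with 1 library left out.

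At this depth Neat1 and Snhg3 rest on 170 to 640 reads per library.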
